A study of Caenorhabditis elegans with 8 samples.

Results

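RNA from whole Caenorhabditis elegans hermaphrodites labelled as RNAi against isoform A of vab-3 was compared with RNA from hermaphrodites on the empty RNAi vector L4440. The comparison holds 5 of the 8 libraries of the study, taken by their labels, with 3 labelled isoform A (replicate numbers 1, 2 and 3) and 2 labelled empty vector (numbers 1 and 3). The other 3 libraries, labelled RNAi against isoform C, entered only the estimate of the spread and a single comparison at the end. Their values are also given for vab-3, col-14, msp-3, msp-152 and hsp-16.41. All worms were of the strain N2, were treated from young adulthood and were collected at 5 days of adulthood. The labels do not say whether the replicates were separate cultures, so p-values measure the spread between these libraries, which may be technical. In whole worms, fewer cells of a type and less RNA per cell cannot be told apart.

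RNAi lowers a transcript by means of double-stranded RNA of matching sequence, which small RNA pathways turn into a guide for silencing. vab-3 is the worm counterpart of Pax6, a transcription factor with a paired domain and a homeodomain, and it is known for its part in forming the head epidermis and sense organs. Adult hermaphrodites hold a large germline with oocytes and embryos, and a soma of epidermis, muscle, pharynx, intestine and neurons. The epidermis lays down the cuticle, a coat of collagens that are hydroxylated, trimmed and cross-linked by dedicated enzymes.

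Each of the 5 libraries held 30289733 to 38284829 counts, and values are given as CPM, read counts scaled to a fixed library size, in the order of the library numbers. A-labelled library 1 stood nearer to the empty vector libraries than A-labelled libraries 2 and 3 did. It had 309 genes at least 2-fold above and 112 at least 2-fold below the empty vector mean, while A-labelled libraries 2 and 3 had 1934 and 1242 above and 210 and 42 below. On the same scale 1619 genes lay at least 2-fold apart between A-labelled libraries 1 and 2, 1229 between 1 and 3, 847 between 2 and 3, and 604 between the empty vector libraries. Most results below are therefore given library by library, while for some genes and lists only the pooled log2 difference is printed.

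The targeted gene stood higher, not lower, in every library labelled as RNAi against it. vab-3 (chromosome X, 10499890 to 10519580, forward strand, build WBcel235) measured 4.43, 5.52 and 4.38 CPM in the A-labelled libraries, against 2.23 and 2.12 CPM in the empty vector libraries. Its counts were 154, 160 and 170 in the A-labelled and 83 and 64 in the empty vector libraries. The groups did not overlap, and the log2 difference, A-labelled minus empty vector with its standard error (SE), was 1.13 ± 0.34 (edgeR, adjusted p = 0.121). The C-labelled libraries measured 4.08, 2.04 and 4.84 CPM. Counts are per gene, so isoforms could not be told apart. Whether reads from the supplied double-stranded RNA, or an exchange of labels, had a part in these counts was not tested. Because the gene goes against the labels, the libraries are called A-labelled throughout, and each direction is one between labelled libraries.

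No gene passed the test between the A-labelled and the empty vector libraries. Of 14772 genes, 0 had an adjusted p below 0.05 in edgeR's quasi-likelihood test (0% of the genes tested), limma-voom called 0, and the smallest edgeR adjusted p was 0.0799, for aman-1. On the higher side 2024 genes (13.7%), and on the lower side 1816 (12.3%), had an unadjusted edgeR p below 0.05. DESeq2 called 772 genes as higher (5.23%) and 377 as lower (2.55%). Without A-labelled library 1, edgeR called 1303 genes, 953 higher and 350 lower, and 1242 of these had an unadjusted p below 0.05 with all libraries. Log2 differences ± SE are given in brackets after the CPM of a gene, and none of the genes named below passed edgeR's threshold against the empty vector. Without the filter on low counts edgeR called 8 genes, all higher, among them aman-1, vet-2, fln-2, dpy-18 and mca-2.

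Direction was then read in each library. All 3 A-labelled libraries lay above both empty vector libraries for 3178 genes (21.5%) and below both for 3272 genes (22.2%). Counts of list members below are read beside these shares, and a count near them says nothing about its list. A gene is called alike here when, in addition, the 3 A-labelled libraries differed among themselves by no more than 0.5 of their mean distance from the empty vector mean. Groups that do not overlap are thus part of the definition and lend an alike gene no support. This pattern was held by 529 genes on the higher side (3.58%), with a median log2 difference of 0.44, and by 604 genes on the lower side (4.09%), with a median of -0.20. Of the alike genes, 342 higher and 407 lower ones had an unadjusted edgeR p below 0.05. The alike genes were chosen on the same libraries, so the choice favours low p-values and these counts are no support. On the log2 scale, 78 higher and 3 lower alike genes differed by at least 1. The 3 lower ones, named after their values were seen, were clec-55, T26C12.2 and Y65B4BL.9. The opposite pattern, called apart, has A-labelled libraries 2 and 3 at least 1 (log2 CPM) from the empty vector mean and beyond both empty vector libraries, and library 1 within 0.5 of that mean. It was held by 484 genes on the higher side (3.28%) and by fbxc-7, F59B2.12 and Y34F4.6, 3 genes at low levels, on the lower side (0.0203%). DESeq2 called 144 of the alike higher, 137 of the alike lower and 85 of the apart higher genes, on the same libraries that chose them. With a single empty vector library as the comparison, the counts were larger, 5142 above and 4617 below without empty vector library 1, and 5251 above and 4863 below without empty vector library 3. Alike higher genes then numbered 824 without empty vector library 1 and 564 without empty vector library 3. Of the 135 genes picked for closer description, not all of which are printed, 81 were alike, vab-3 included, with edgeR adjusted p between 0.0799 and 0.207. Of these 81, 22 had an exon that overlaps another gene, among them mca-2, alh-10 and glp-1. The libraries do not mark the strand, so reads of overlapping genes cannot be told apart.

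**Figure D1:**
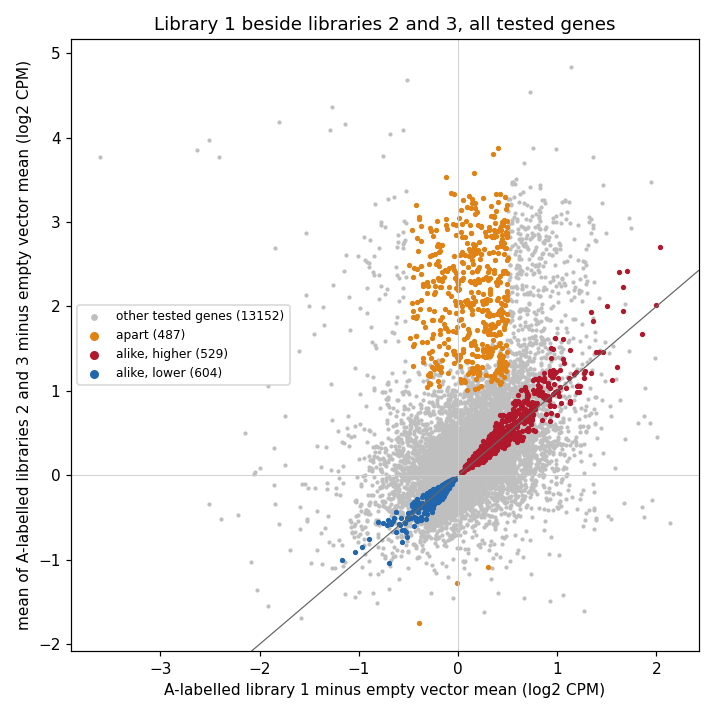
Each point is 1 of the 14772 tested genes, with the log2 CPM of A-labelled library 1 minus the empty vector mean on the x axis and the mean of A-labelled libraries 2 and 3 minus the same mean on the y axis. Alike genes (529 higher, 604 lower) lie near the diagonal line, where library 1 equals the mean of libraries 2 and 3, and the apart genes (484 higher, 3 lower) lie in a column within 0.5 of 0 on the x axis.

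The lowest p belonged to a lysosomal enzyme and to a transcript of the earliest embryo. aman-1 (chromosome X, 4733095 to 4738592), an alpha-mannosidase that trims mannose from glycans, measured 15.02, 16.4 and 13.8 CPM in the A-labelled libraries, against 6.09 and 4.81 CPM in the empty vector libraries, and its log2 difference was 1.46 ± 0.15. vet-2 (chromosome I, 10846772 to 10850103), a very early embryonic transcript, measured 48.1, 46.1 and 49.5 CPM in the A-labelled libraries, against 31.6 and 26.9 CPM in the empty vector libraries (0.71 ± 0.08; edgeR, adjusted p = 0.116). In both genes the A-labelled libraries lay close together and clear of the empty vector libraries, as the definition of alike requires. The group levels of aman-1 were 15.1 ± 1.25 CPM in the A-labelled libraries (SD, n = 3) and 5.45 ± 0.903 CPM in the empty vector libraries (SD, n = 2).

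**Figure D2:**
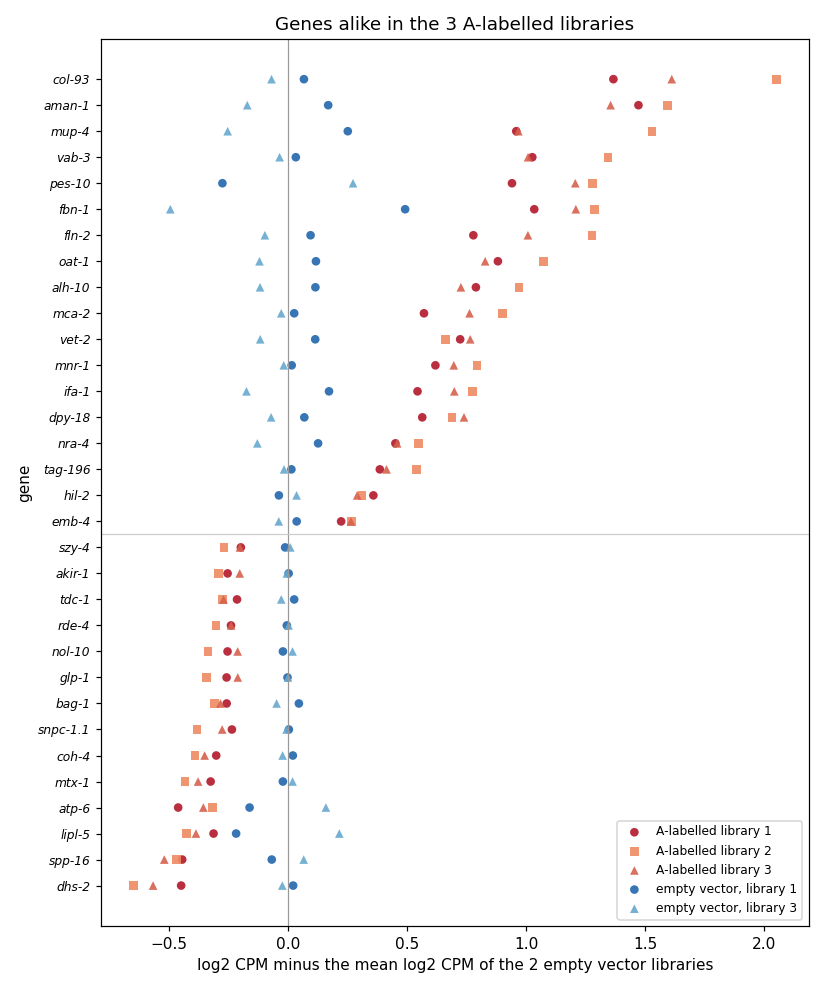
Rows are vab-3 and the named alike genes, and the x axis is the log2 CPM of each library minus the mean log2 CPM of the empty vector libraries. A-labelled libraries are in reds and empty vector libraries in blues. In every row the 3 A-labelled points lie on one side of both empty vector points, as the definition of alike requires.

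The alike higher genes included proteins that link the cytoskeleton, the cell surface and the matrix. fln-2 (chromosome X, 9397701 to 9427253), a filamin that cross-links actin, measured 51.4, 72.7 and 60.3 CPM in the A-labelled libraries, against 32.04 and 28.1 CPM in the empty vector libraries (1.03 ± 0.14). mup-4, a transmembrane receptor that ties epidermal attachments to the cuticle, measured 83.9, 125 and 84.4 CPM in the A-labelled libraries, against 51.4 and 36.3 CPM in the empty vector libraries (1.15 ± 0.27). The intermediate filament gene ifa-1 measured 26.2, 30.8 and 29.2 CPM in the A-labelled libraries, against 20.3 and 15.9 CPM in the empty vector libraries (0.66 ± 0.12). Library 2 was the highest of the A-labelled libraries for all 3 genes. Alpha-spectrin, encoded by spc-1, forms the membrane skeleton, and it measured 264, 283 and 278 CPM in the A-labelled libraries, against 226 and 197 CPM in the empty vector libraries (0.38 ± 0.08). mnr-1, whose product menorin is an epidermal cue for the branching of sensory dendrites, measured 11.2, 12.7 and 11.9 CPM in the A-labelled libraries, against 7.41 and 7.24 CPM in the empty vector libraries (0.70 ± 0.11). None of these genes had overlapping groups, which follows from their being alike. Of 24 genes on the list of epithelial attachment, spectrin and filamin genes, 16 lay above both empty vector libraries in all A-labelled libraries, 2 lay below both, and 5 were alike higher, these same 5. The list's median log2 difference was 0.40, against 0.03 over all genes tested, and its library medians were 0.25, 0.59 and 0.39 in A-labelled libraries 1, 2 and 3.

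Enzymes that modify and cross-link collagen were alike higher in 5 of 12 cases, where 3.58% of all genes tested were. dpy-18 (chromosome III, 11372886 to 11377980) and phy-2 (chromosome IV, 12211097 to 12215987) encode the catalytic subunits of prolyl 4-hydroxylase, which hydroxylates collagen prolines. dpy-18 measured 40.7, 44.3 and 45.9 CPM in the A-labelled libraries, against 28.8 and 26.2 CPM in the empty vector libraries (0.66 ± 0.09). phy-2 measured 14.4, 16.9 and 18.7 CPM in the A-labelled libraries, against 10.5 and 9.26 CPM in the empty vector libraries (0.76 ± 0.15). Both subunit genes were alike, so their groups did not overlap by definition. The partner subunit, the protein disulfide isomerase pdi-2, measured 595, 712 and 675 CPM in the A-labelled libraries, against 493 and 455 CPM in the empty vector libraries (0.48 ± 0.08), without overlap but outside the alike limit. Cross-links between cuticle collagens are made by an oxidase complex. bli-3, a dual oxidase that makes the tyrosine cross-links of the cuticle, measured 18.4, 21.2 and 20.3 CPM in the A-labelled libraries, against 15.3 and 12.4 CPM in the empty vector libraries (0.52 ± 0.12). Its maturation factor doxa-1 measured 2.56, 3.49 and 2.70 CPM in the A-labelled libraries, against 1.37 and 1.03 CPM in the empty vector libraries (1.27 ± 0.27). The tetraspanin tsp-15, which works with them, measured 4.06, 4.31 and 5.05 CPM in the A-labelled libraries, against 3.70 and 3.02 CPM in the empty vector libraries (0.41 ± 0.21). Both oxidase genes were alike, whereas tsp-15 was not, although its groups did not overlap. dpy-31, an astacin protease that trims procollagen, measured 20.3, 21.7 and 22.3 CPM in the A-labelled libraries, against 16.8 and 14.2 CPM in the empty vector libraries (0.47 ± 0.10). The lysyl hydroxylase let-268 measured 6.33, 9.21 and 8.88 CPM in the A-labelled libraries, against 4.08 and 5.44 CPM in the empty vector libraries (0.78 ± 0.22). In all, 9 of the 12 enzymes lay above both empty vector libraries and 0 below both, with library medians of 0.39, 0.60 and 0.57 in A-labelled libraries 1, 2 and 3.

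The collagens themselves were more often apart than alike. Of 140 cuticle collagen genes tested, 98 lay above both empty vector libraries in all A-labelled libraries and 1 below both. Over all genes tested, 21.5% lay above both and 22.2% below both. Of the same 140 genes, 2 were alike higher, 0 alike lower and 45 apart. The library medians were 0.49, 2.51 and 2.56 in A-labelled libraries 1, 2 and 3. The alike collagens were col-150 and col-93. col-150 (chromosome V, 10293563 to 10294649) measured 1.93, 2.24 and 1.83 CPM in the A-labelled libraries, against 0.698 and 0.697 CPM in the empty vector libraries (1.51 ± 0.24). col-93 measured 61.9, 99.5 and 73.4 CPM in the A-labelled libraries, against 25.2 and 22.9 CPM in the empty vector libraries (1.70 ± 0.37). col-94 was high in every A-labelled library but less so in library 1, at 25.5, 50.8 and 47.3 CPM in the A-labelled libraries, against 11.4 and 10.2 CPM in the empty vector libraries. The named apart collagens had library 1 near the empty vector level. col-97 measured 2.04, 16.7 and 29.6 CPM in the A-labelled libraries, against 1.74 and 1.89 CPM in the empty vector libraries. col-133 measured 1.38, 12.1 and 26.8 CPM in the A-labelled libraries, against 0.886 and 2.52 CPM in the empty vector libraries. For col-133, library 1 lay between the empty vector libraries. col-14 measured 1.61, 13.3 and 23.4 CPM in the A-labelled libraries, against 1.69 and 1.69 CPM in the empty vector libraries. col-109 measured 1.27, 9.63 and 15.3 CPM in the A-labelled libraries, against 1.18 and 1.16 CPM in the empty vector libraries. col-104 measured 1.18, 8.21 and 16.1 CPM in the A-labelled libraries, against 1.26 and 1.49 CPM in the empty vector libraries. Library 3 was the highest of the 5 libraries for each of these 5 genes. Among the C-labelled libraries number 1 was likewise the lowest for each of them, as for col-14 at 1.01, 3.19 and 2.19 CPM. With library 1 as the only A-labelled library, the log2 difference of col-14, col-104 and col-133 was -0.055, -0.20 and -0.26.

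**Figure D3:**
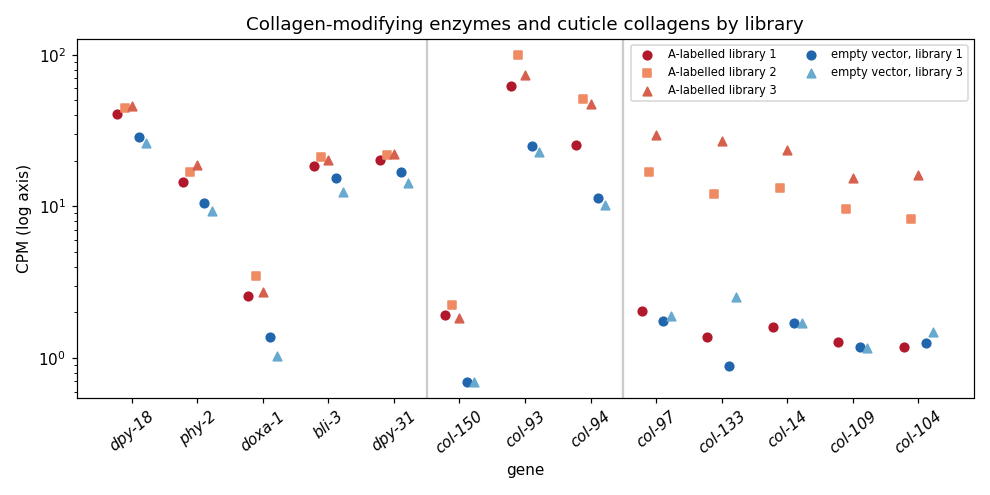
CPM on a log axis for 5 collagen-modifying enzymes (left), 3 collagens high in every A-labelled library (middle) and the 5 named apart collagens (right), with 1 point per library, A-labelled in reds left of empty vector in blues. For dpy-18 the A-labelled points run from 40.7 to 45.9 CPM, whereas for col-97 they run from 2.04 to 29.6 CPM.

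Most genes of the other matrices stood higher in every A-labelled library, with the largest list medians in library 2. The basement membrane is the sheet of collagen IV and laminin beneath epithelia and muscle, and 13 of its 15 genes lay above both empty vector libraries, with library medians of 0.65, 1.35 and 0.76 in A-labelled libraries 1, 2 and 3. The collagen IV gene emb-9 measured 91.5, 176 and 116.4 CPM in the A-labelled libraries, against 51.98 and 65.3 CPM in the empty vector libraries. The papilin gene mig-6 measured 99.9, 177 and 128 CPM in the A-labelled libraries, against 41.0 and 52.6 CPM in the empty vector libraries. The single alike gene of the list was the peroxidasin pxn-2, at 5.15, 5.56 and 5.05 CPM in the A-labelled libraries, against 2.87 and 2.59 CPM in the empty vector libraries (0.94 ± 0.19). Of 44 genes of the precuticle and of zona pellucida domain matrix proteins, 26 lay above both, 1 below both and 4 were alike higher, with library medians of 0.55, 1.08 and 0.76 in A-labelled libraries 1, 2 and 3. let-653 and let-4 encode matrix proteins that shape narrow epithelial tubes. let-653 measured 9.64, 10.6 and 9.40 CPM in the A-labelled libraries, against 6.57 and 4.61 CPM in the empty vector libraries (0.82 ± 0.17). let-4 measured 4.34, 6.90 and 6.10 CPM in the A-labelled libraries, against 2.74 and 1.83 CPM in the empty vector libraries (1.33 ± 0.26). fbn-1, a fibrillin homolog, measured 25.5, 30.4 and 28.8 CPM in the A-labelled libraries, against 17.6 and 8.86 CPM in the empty vector libraries (1.09 ± 0.31). Its empty vector libraries lay farther apart than its A-labelled libraries.

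Moulting genes and hedgehog-related genes are known for their activity in larvae. Of 18 moulting genes, 16 lay above both empty vector libraries and 1 below both, and 3 were alike. Over all genes tested, 21.5% lay above both and 22.2% below both. The protease inhibitor gene mlt-11 measured 23.4, 89.1 and 60.3 CPM in the A-labelled libraries, against 13.6 and 11.8 CPM in the empty vector libraries, so library 1 lay much closer to the empty vector libraries than libraries 2 and 3. nas-37, an astacin protease needed to shed the old cuticle, measured 9.47, 15.2 and 17.6 CPM in the A-labelled libraries, against 8.53 and 6.97 CPM in the empty vector libraries. nhr-23, a nuclear receptor that drives the larval moults, measured 77.9, 76.1 and 73.9 CPM in the A-labelled libraries, against 83.7 and 77.9 CPM in the empty vector libraries. Of 64 hedgehog-related and patched-related genes, 39 lay above both and 2 below both, and the 4 alike higher ones were all patched-related. These membrane proteins with a sterol-sensing domain were ptr-11, ptr-12, ptr-13 and ptr-23, with log2 differences of 0.61 ± 0.20, 0.73 ± 0.19, 0.50 ± 0.13 and 0.60 ± 0.15. ptr-23 measured 23.02, 23.7 and 24.3 CPM in the A-labelled libraries, against 18.2 and 13.1 CPM in the empty vector libraries. The secreted ground-like protein gene grl-17 was alike lower, at 0.921, 0.690 and 0.747 CPM in the A-labelled libraries, against 1.64 and 1.43 CPM in the empty vector libraries. The groundhog-like gene grd-13 measured 1.41, 3.45 and 2.14 CPM in the A-labelled libraries, against 0.564 and 0.465 CPM in the empty vector libraries.

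In muscle, 32 of 35 sarcomere and attachment genes lay above both empty vector libraries and 0 below both. Over all genes tested these shares were 21.5% and 22.2%. The list's library medians were 0.41, 1.03 and 0.65 in A-labelled libraries 1, 2 and 3. The alike members were pat-4 and unc-78. pat-4, the integrin-linked kinase homolog, measured 16.4, 17.6 and 15.2 CPM in the A-labelled libraries, against 11.6 and 12.2 CPM in the empty vector libraries (0.46 ± 0.11). unc-78, an actin-disassembly factor, measured 34.8, 36.3 and 36.4 CPM in the A-labelled libraries, against 30.5 and 30.2 CPM in the empty vector libraries (0.24 ± 0.07). The myosin heavy chain gene unc-54 spread more widely, at 332, 758 and 565 CPM in the A-labelled libraries, against 147 and 219.9 CPM in the empty vector libraries (1.59 ± 0.40). Its A-labelled libraries 1 and 2 themselves lay more than 2-fold apart. The alpha-integrin gene pat-2 measured 17.7, 33.96 and 25.3 CPM in the A-labelled libraries, against 10.7 and 11.32 CPM in the empty vector libraries. The alpha-actinin gene atn-1 measured 77.9, 94.2 and 90.8 CPM in the A-labelled libraries, against 67.1 and 61.4 CPM in the empty vector libraries. Of 23 pharynx genes tested, 15 lay above both empty vector libraries, 0 were alike and 4 apart, with library medians of 0.73, 2.55 and 2.12 in A-labelled libraries 1, 2 and 3. The pharynx lining gene abu-8 measured 1.61, 4.38 and 4.12 CPM in the A-labelled libraries, against 0.751 and 0.896 CPM in the empty vector libraries. Its relative abu-12 measured 1.01, 4.69 and 4.40 CPM in the A-labelled libraries, against 0.403 and 0.465 CPM in the empty vector libraries.

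The pump genes mca-2, mca-1 and sca-1, whose products clear calcium from the cytoplasm, were alike. mca-2 (chromosome IV, 2084034 to 2091919), a calcium pump of the plasma membrane, measured 31.3, 39.3 and 35.7 CPM in the A-labelled libraries, against 21.4 and 20.7 CPM in the empty vector libraries (0.75 ± 0.11). Its relative mca-1 measured 188, 195 and 199 CPM in the A-labelled libraries, against 169 and 160.3 CPM in the empty vector libraries (0.24 ± 0.05). sca-1, the pump of the sarcoplasmic and endoplasmic reticulum, measured 844, 897 and 872 CPM in the A-labelled libraries, against 737 and 693 CPM in the empty vector libraries (0.29 ± 0.06). Groups did not overlap for any of the 3 pumps, which is part of being alike. The calcium channel genes egl-19 and unc-68, named after their values were seen, spread more between libraries. egl-19, the L-type calcium channel, measured 9.15, 17.9 and 12.6 CPM in the A-labelled libraries, against 7.11 and 7.84 CPM in the empty vector libraries. unc-68, the ryanodine receptor, measured 35.9, 65.2 and 45.2 CPM in the A-labelled libraries, against 25.3 and 36.4 CPM in the empty vector libraries. For unc-68, A-labelled library 1 lay between the empty vector libraries. Of 13 calcium handling genes, 9 lay above both and 0 below both, and 4 were alike higher, with library medians of 0.23, 0.72 and 0.37 in A-labelled libraries 1, 2 and 3.

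Neuronal genes were mixed, with those of synaptic release and neurotransmitters more often on the higher side. Of 34 genes of synaptic release and neurotransmitters, 26 had a positive log2 difference, 16 lay above both empty vector libraries and 3 below both. Over all genes tested, 21.5% lay above both and 22.2% below both. The library medians of these 34 genes were 0.14, 0.69 and 0.28 in A-labelled libraries 1, 2 and 3. unc-25, the enzyme that makes GABA, was alike higher at 4.34, 6.18 and 4.84 CPM in the A-labelled libraries, against 2.66 and 2.29 CPM in the empty vector libraries (1.04 ± 0.19). tdc-1 (chromosome II, 8270597 to 8273615), the tyrosine decarboxylase that makes tyramine, was alike lower at 319, 306 and 307 CPM in the A-labelled libraries, against 377 and 363 CPM in the empty vector libraries (-0.25 ± 0.05). Its exons overlap those of gei-14 on the other strand, which measured 102, 92.3 and 99.9 CPM in the A-labelled libraries, against 114 and 115 CPM in the empty vector libraries, so the reads of the overlap cannot be assigned. Of 62 neuropeptide genes, 12 lay above both and 2 below both, and 0 had an unadjusted p below 0.05. The share above both was near the 21.5% of all genes tested. The list's library medians were -0.07, 0.39 and 0.09 in A-labelled libraries 1, 2 and 3. Of 11 head glia genes, 7 lay above both and 0 were alike. daf-6, which shapes the glial channels of sense organs, measured 0.806, 2.62 and 1.83 CPM in the A-labelled libraries, against 0.564 and 0.365 CPM in the empty vector libraries. The patched-related gene ptr-10 of the same list measured 1.27, 3.21 and 2.39 CPM in the A-labelled libraries, against 0.859 and 0.697 CPM in the empty vector libraries.

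vab-3 belongs to a group of regulators of eye and head development. Of 9 Pax, sine oculis and eyes absent genes tested, vab-3 included, 8 had a positive log2 difference and 3 lay above both empty vector libraries. Over all genes tested, 21.5% lay above both. The 1 alike gene of this list was vab-3. The sine oculis homolog ceh-32 measured 28.9, 19.6 and 27.2 CPM in the A-labelled libraries, against 24.3 and 15.5 CPM in the empty vector libraries. eya-1 measured 10.7, 7.66 and 6.95 CPM in the A-labelled libraries, against 8.29 and 5.25 CPM in the empty vector libraries. In both the groups overlapped.

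Transcripts of the early embryo formed the list whose level was most even over the A-labelled libraries among those with a median over 0.4. Of 43 vet, pes, sdz and endoderm genes tested, 19 lay above both empty vector libraries, 1 below both, 5 were alike higher and 14 had an unadjusted p below 0.05. The list's median log2 difference was 0.41, and its library medians were 0.46, 0.37 and 0.44 in A-labelled libraries 1, 2 and 3. pes-10, an early zygotic transcript, measured 7.54, 9.52 and 9.06 CPM in the A-labelled libraries, against 3.25 and 4.75 CPM in the empty vector libraries (1.13 ± 0.21). vet-6 measured 33, 31.1 and 25.3 CPM in the A-labelled libraries, against 17.01 and 11.8 CPM in the empty vector libraries (1.04 ± 0.21). Library 3 was the lowest A-labelled library for vet-6. sdz-4, a gene named for its dependence on the maternal factor SKN-1, measured 4.06, 3.80 and 3.55 CPM in the A-labelled libraries, against 2.79 and 2.26 CPM in the empty vector libraries (0.59 ± 0.18). sdz-33 measured 3.54, 3.002 and 3.09 CPM in the A-labelled libraries, against 2.42 and 2.12 CPM in the empty vector libraries (0.50 ± 0.21). The endoderm factor end-3 measured 0.691, 0.621 and 0.489 CPM in the A-labelled libraries, against 0.456 and 0.531 CPM in the empty vector libraries, and end-1 and med-1 were too low to be tested.

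Most germline, oocyte and eggshell genes lay slightly lower in the A-labelled libraries. Of 25 germline and oocyte genes, 14 lay below both empty vector libraries and 1 above both. Over all genes tested, 22.2% lay below both and 21.5% above both. The list's library medians were -0.07, -0.09 and -0.11 in A-labelled libraries 1, 2 and 3. The Notch receptor glp-1 (chromosome III, 9092241 to 9099698), which keeps germline stem cells dividing, measured 358, 338 and 370.2 CPM in the A-labelled libraries, against 428 and 428 CPM in the empty vector libraries (-0.27 ± 0.05). puf-5, an RNA-binding protein of oocytes, measured 1447, 1431 and 1415 CPM in the A-labelled libraries, against 1557 and 1607 CPM in the empty vector libraries (-0.14 ± 0.05). The synaptonemal complex gene him-3 measured 111, 99.2 and 109.7 CPM in the A-labelled libraries, against 129.6 and 124 CPM in the empty vector libraries (-0.25 ± 0.07). Differences of this size were small. The groups did not overlap, but for glp-1 and puf-5 that is part of the definition of alike. For the eggshell, 10 of 14 genes lay below both and 0 above both, with library medians of -0.11, -0.19 and -0.13 in A-labelled libraries 1, 2 and 3. The chitin synthase chs-1 measured 802, 755 and 768 CPM in the A-labelled libraries, against 893 and 863 CPM in the empty vector libraries (-0.18 ± 0.06). gna-2, which supplies its sugar substrate, measured 200.1, 195 and 199 CPM in the A-labelled libraries, against 231 and 234.7 CPM in the empty vector libraries (-0.23 ± 0.06). egg-3, an egg activation protein, measured 266, 247 and 252 CPM in the A-labelled libraries, against 296 and 288 CPM in the empty vector libraries (-0.20 ± 0.05).

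The small RNA pathway carries out RNAi. Of its 51 genes tested, 8 lay above both empty vector libraries and 17 below both, where 21.5% and 22.2% of all genes did. Of the same genes, 2 were alike higher and 4 alike lower, beside 3.58% and 4.09% of all genes, so nothing about the list is read from the alike counts. rde-4 (chromosome III, 10217302 to 10218646), the double-stranded RNA-binding partner of Dicer, measured 132.7, 127 and 132.7 CPM in the A-labelled libraries, against 156 and 157 CPM in the empty vector libraries (-0.26 ± 0.05). The nuclear Argonaute gene hrde-1 measured 956, 950.1 and 987 CPM in the A-labelled libraries, against 1092 and 1204 CPM in the empty vector libraries (-0.25 ± 0.06). Its product carries silencing across generations in the germline. The helicase gene mut-14 measured 52.5, 49.1 and 49.9 CPM in the A-labelled libraries, against 58.5 and 58.5 CPM in the empty vector libraries (-0.21 ± 0.07). wago-4 measured 238, 239 and 246 CPM in the A-labelled libraries, against 261 and 273 CPM in the empty vector libraries (-0.15 ± 0.06). These 4 genes were alike lower. The microRNA Argonaute gene alg-2 was alike higher at 125, 122 and 115 CPM in the A-labelled libraries, against 94.2 and 97.2 CPM in the empty vector libraries (0.33 ± 0.08). rde-1, the Argonaute that first binds RNAi guides, measured 111, 113 and 108 CPM in the A-labelled libraries, against 112 and 118 CPM in the empty vector libraries. The double-stranded RNA transporter sid-1 measured 98.1, 93.8 and 94.6 CPM in the A-labelled libraries, against 98.1 and 103 CPM in the empty vector libraries. The list's library medians were -0.07, -0.03 and -0.01 in A-labelled libraries 1, 2 and 3.

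The other alike lower genes with the smallest p differed little in size. mtx-1 (chromosome I, 14755154 to 14756412), a metaxin of the mitochondrial outer membrane, measured 74.9, 69.6 and 72.3 CPM in the A-labelled libraries, against 92.5 and 95.1 CPM in the empty vector libraries (-0.38 ± 0.06). The meiotic cohesin subunit coh-4 measured 34.3, 32.2 and 33.2 CPM in the A-labelled libraries, against 42.9 and 41.6 CPM in the empty vector libraries (-0.35 ± 0.06). In both genes the A-labelled libraries lay closer to one another than to either empty vector library, a closeness for which alike genes were chosen. snpc-1.1, a subunit of the complex that drives small nuclear RNA genes, measured 88.6, 80.0 and 86.1 CPM in the A-labelled libraries, against 105 and 103.9 CPM in the empty vector libraries (-0.30 ± 0.06). The Hsp70 co-chaperone bag-1 measured 44.8, 43.2 and 44.0 CPM in the A-labelled libraries, against 55.2 and 51.8 CPM in the empty vector libraries. The akirin gene akir-1, the nucleolar protein gene nol-10 and szy-4 had log2 differences of -0.25 ± 0.05, -0.26 ± 0.06 and -0.22 ± 0.05. Larger differences were held by dhs-2, a short-chain dehydrogenase, at 6.70, 5.83 and 6.18 CPM in the A-labelled libraries, against 9.29 and 8.997 CPM in the empty vector libraries (-0.55 ± 0.16), and by spp-16, a saposin-like protein, at 8.98, 8.83 and 8.52 CPM in the A-labelled libraries, against 11.6 and 12.8 CPM in the empty vector libraries (-0.48 ± 0.11). For the lipase gene lipl-5 the log2 difference was -0.39 ± 0.12, and the empty vector libraries, at 315 and 426 CPM, lay farther apart than the A-labelled ones, at 295, 273 and 280.4 CPM. Of 18 mitochondrial import and contact genes, 8 lay below both and 2 above both. Of 12 genes of the mitochondrial genome, 2 lay below both and 0 above both. Over all genes tested, 22.2% lay below both and 21.5% above both. The mitochondrial genome's share below both was near that of all genes, so nothing is read from it. Its gene atp-6, which lay below both, measured 131, 145 and 141 CPM in the A-labelled libraries, against 162 and 202 CPM in the empty vector libraries.

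Enzymes of protein folding, lysosomes and metabolism included further alike genes. hsp-3, a chaperone of the endoplasmic reticulum, measured 799.9, 812 and 828 CPM in the A-labelled libraries, against 661 and 559 CPM in the empty vector libraries (0.41 ± 0.09), and 12 of 15 constitutive chaperone genes lay above both empty vector libraries. nra-4, which helps receptors mature in the same compartment, measured 247, 264 and 249 CPM in the A-labelled libraries, against 197 and 166 CPM in the empty vector libraries (0.48 ± 0.09). Of 70 lysosomal genes, 24 lay above both and 8 below both. Over all genes tested these shares were 21.5% and 22.2%. Besides aman-1, the cathepsin gene tag-196 was alike higher at 43.7, 48.6 and 44.6 CPM in the A-labelled libraries, against 33.8 and 33.1 CPM in the empty vector libraries (0.45 ± 0.07), as was the lysosomal membrane protein gene lmp-1 at 205, 213 and 222 CPM in the A-labelled libraries, against 178 and 179.5 CPM in the empty vector libraries (0.25 ± 0.06). The proton pump subunit vha-18 was alike lower at 107, 101 and 105 CPM in the A-labelled libraries, against 121 and 119 CPM in the empty vector libraries (-0.20 ± 0.05). alh-10 (chromosome X, 7140504 to 7143641), an aldehyde dehydrogenase, measured 17.3, 19.6 and 16.6 CPM in the A-labelled libraries, against 10.8 and 9.23 CPM in the empty vector libraries (0.83 ± 0.12), and 3 of 12 genes of that family lay above both, a share near the 21.5% of all genes tested. The acyl-CoA dehydrogenases acdh-10, acdh-7 and acdh-12, which act in fat breakdown, were alike with log2 differences of 0.28 ± 0.06, 0.22 ± 0.06 and 0.18 ± 0.05. Fatty acid synthesis and oxidation genes lay above both in 20 of 67 cases and below both in 5. The cytochrome P450 gene cyp-14A5 was alike higher at 9.24, 11.4 and 9.499 CPM in the A-labelled libraries, against 6.47 and 5.64 CPM in the empty vector libraries, and cyp-25A2 alike lower at 15.2, 15.6 and 14.6 CPM in the A-labelled libraries, against 18.5 and 18.8 CPM in the empty vector libraries. In chromatin, the linker histone gene hil-2 (chromosome IV, 6294240 to 6295217) was alike higher at 89.8, 86.9 and 85.7 CPM in the A-labelled libraries, against 68.2 and 71.8 CPM in the empty vector libraries (0.32 ± 0.05), whereas hil-4 measured 397, 410.1 and 453 CPM in the A-labelled libraries, against 471 and 520.4 CPM in the empty vector libraries (-0.24 ± 0.07). The anion transporter gene oat-1 and emb-4, an RNA helicase that acts with nuclear small RNAs and introns, had log2 differences of 0.92 ± 0.17 and 0.25 ± 0.04.

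Sperm genes showed the widest gap between library 1 and libraries 2 and 3. Of 54 tested, 32 were apart and 0 alike higher, and the library medians were -0.04, 1.98 and 2.90 in A-labelled libraries 1, 2 and 3. msp-3 had 8, 28 and 91 counts in the A-labelled libraries, against 6 and 5 counts in the empty vector libraries. msp-152 measured 0.834, 3.31 and 4.02 CPM in the A-labelled libraries, against 0.483 and 0.531 CPM in the empty vector libraries. In the C-labelled libraries msp-3 had 3, 28 and 14 counts and msp-152 measured 0.328, 1.71 and 0.893 CPM. Number 1 was thus the lowest there too. Major sperm protein genes are near-identical copies, so the counts of a single member are uncertain. spe-39, a trafficking gene also used outside sperm, was alike lower at 90.7, 93 and 92.6 CPM in the A-labelled libraries, against 109.2 and 109.6 CPM in the empty vector libraries. Among inducible heat shock genes, hsp-70 measured 26.8, 2.52 and 5.15 CPM in the A-labelled libraries, against 27.99 and 4.38 CPM in the empty vector libraries, so both libraries numbered 1 were high, and hsp-16.41 measured 13.2, 1.93 and 4.66 CPM in the A-labelled libraries, against 18.3 and 3.78 CPM in the empty vector libraries. In the C-labelled libraries hsp-16.41 measured 15.7, 3.52 and 3.98 CPM, so it was high in number 1 there too. The log2 difference of hsp-16.41 was -0.74 ± 1.06 with all libraries and 0.81 without empty vector library 1. None of the 13 heat shock genes was alike.

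The remaining lists had median log2 differences between -0.01 and 0.33. Yolk proteins are made in the intestine for the oocytes, and 0 of 6 yolk genes lay above both and 0 below both, with a median log2 difference of 0.23. The libraries disagreed, with yolk medians of 0.09, 0.71 and -0.15 in A-labelled libraries 1, 2 and 3. In the gut itself, 3 of 10 intestinal genes lay above both and 2 below both, with a median log2 difference of 0.33. In the ribosome, 0 of 78 cytosolic ribosomal protein genes lay above both and 1 below both, with a median log2 difference of 0.03. In mitochondria, 19 of 33 nuclear-encoded oxidative phosphorylation genes lay above both and 3 below both, with a median log2 difference of 0.11. In protein turnover, 12 of 30 proteasome genes lay above both and 0 below both, with a median log2 difference of 0.06. In signalling, 8 of 32 insulin pathway genes lay above both and 5 below both, with a median log2 difference of 0.03. Nuclear hormone receptors divided nearly evenly, 29 of 189 above both and 28 below both. C-type lectin, lysozyme and saposin-like defence genes had 28 above and 22 below of 139, and epidermal antimicrobial peptide genes 9 above and 0 below of 37. Of 164 cytochrome P450, UGT and GST genes, 31 lay above and 15 below. Of 8 linker histone genes, 2 lay above and 2 below. Over all genes tested, 21.5% lay above both and 22.2% below both. The shares of insulin pathway, nuclear hormone receptor, defence, cytochrome P450, UGT and GST, and linker histone genes were near or below these. Nothing about those lists is read from their counts.

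**Figure D4:**
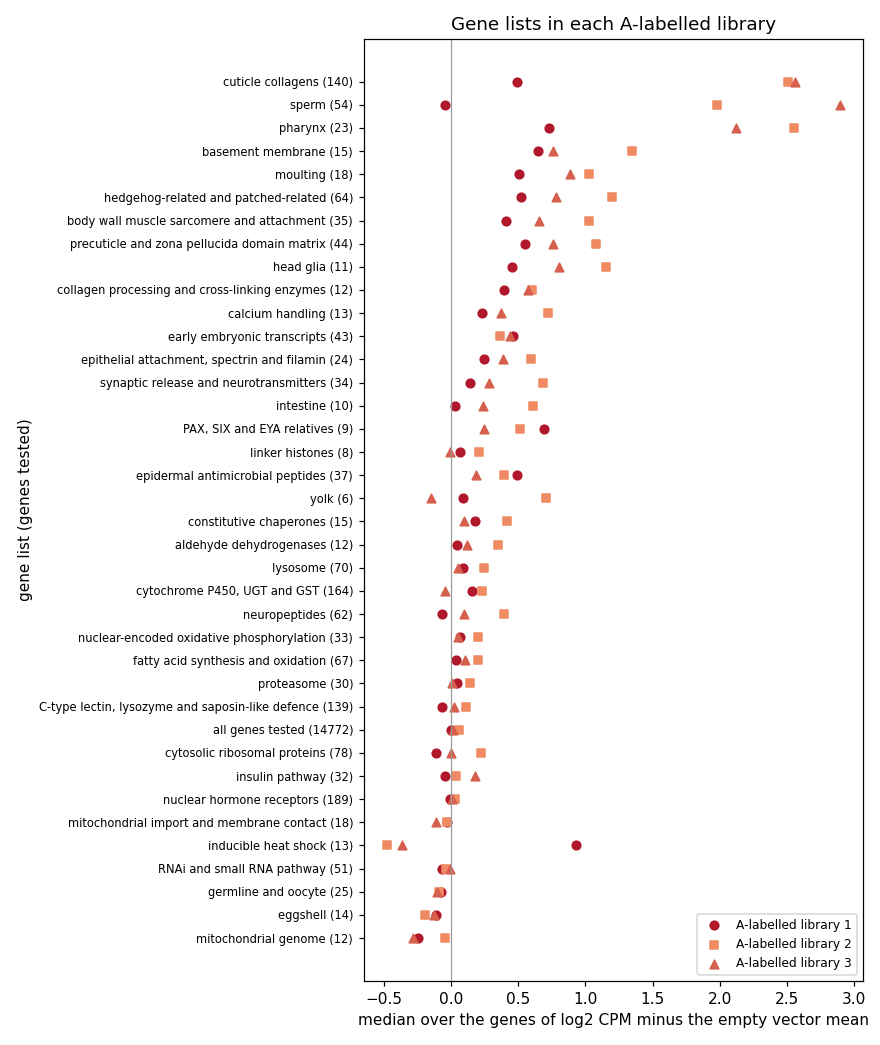
Each row is a gene list with the number of genes tested, and the points are the median log2 CPM difference of its genes from the empty vector mean in A-labelled libraries 1, 2 and 3. Collagens, sperm and pharynx genes have libraries 2 and 3 far to the right of library 1, while early embryonic transcripts (0.46, 0.37 and 0.44) and eggshell genes (-0.11, -0.19 and -0.13) have the 3 points close together.

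Markers of the main tissues, taken as summed CPM, moved with these groups. Body wall muscle markers summed to 612, 1328 and 964 CPM in A-labelled libraries 1, 2 and 3, against 296 and 406 CPM in empty vector libraries 1 and 3. Pharynx markers summed to 50.6, 133.4 and 78.2 CPM in A-labelled libraries 1, 2 and 3, against 26.8 and 44.0 CPM in empty vector libraries 1 and 3, and epidermis markers to 132.98, 301 and 175 CPM in A-labelled libraries 1, 2 and 3, against 80.2 and 82.6 CPM in empty vector libraries 1 and 3. All 13 markers of these 3 tissues lay above both empty vector libraries. Germline markers summed to 1481, 1426 and 1482 CPM in the A-labelled libraries, against 1615 and 1577 CPM in the empty vector libraries. Oocyte markers summed to 4340.4, 4360.1 and 4169 CPM in the A-labelled libraries, against 4458 and 4584 CPM in the empty vector libraries. Of these 9 markers, 6 lay below both and 1, a germline marker, above both. Neuron markers summed to 18.7, 27.7 and 22.96 CPM in A-labelled libraries 1, 2 and 3, against 15.1 and 15.7 CPM in empty vector libraries 1 and 3, with 3 of 5 above both. Library 2 held the highest A-labelled sum for muscle, pharynx, epidermis and neurons. Intestine markers summed to 261, 450 and 349 CPM in A-labelled libraries 1, 2 and 3, against 239.5 and 274 CPM in empty vector libraries 1 and 3, with 1 of 5 above and 1 below both. Of the larval moult markers, 3 of 4 lay above both, and the sum was 111, 204 and 182 CPM in A-labelled libraries 1, 2 and 3, against 111 and 100.1 CPM in empty vector libraries 1 and 3. Of the sperm markers 3 of 4 were tested, and they summed to 1.04, 3.17 and 6.54 CPM in A-labelled libraries 1, 2 and 3, against 1.07 and 0.797 CPM in empty vector libraries 1 and 3. The highest of these sums was that of A-labelled library 3. The early embryo markers that were tested, vet-2 and end-3, summed to 48.8, 46.7 and 50.02 CPM in A-labelled libraries 1, 2 and 3, against 32.01 and 27.4 CPM in empty vector libraries 1 and 3. Nearly all of this sum was vet-2, described above for its low p, and the groups overlapped for end-3. The sum therefore adds nothing to the values of vet-2. Defining markers of each tissue were thus present, whereas spe-38 of sperm and end-1 and med-1 of the embryo were too low to be tested. Their part in the differences between libraries was not tested.

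Genes of the X chromosome lay more often on the higher side than those of the autosomes. Of 2094 tested X-linked genes, 34.1% lay above both empty vector libraries in all A-labelled libraries and 5.68% below both. Of 12585 autosomal genes these shares were 19.4% and 24.97%. The X held 14.2% of the genes tested, 24.2% of the alike higher genes and 4.14% of the alike lower genes. In A-labelled libraries 1, 2 and 3 the median X-linked gene stood 0.12, 0.28 and 0.16 (log2 CPM) from the empty vector mean, and the median autosomal gene -0.02, 0.02 and -0.01. X-linked genes are known to be used little in the germline of the worm and much in its soma. Among genes on none of the lists, 31.7% of the X-linked and 17.9% of the autosomal ones lay above both. Among autosomes, chromosomes I and III had the largest shares below both, 29.8% and 30.3%. Genes are not independent replicates, so these shares carry no test.

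**Figure D5:**
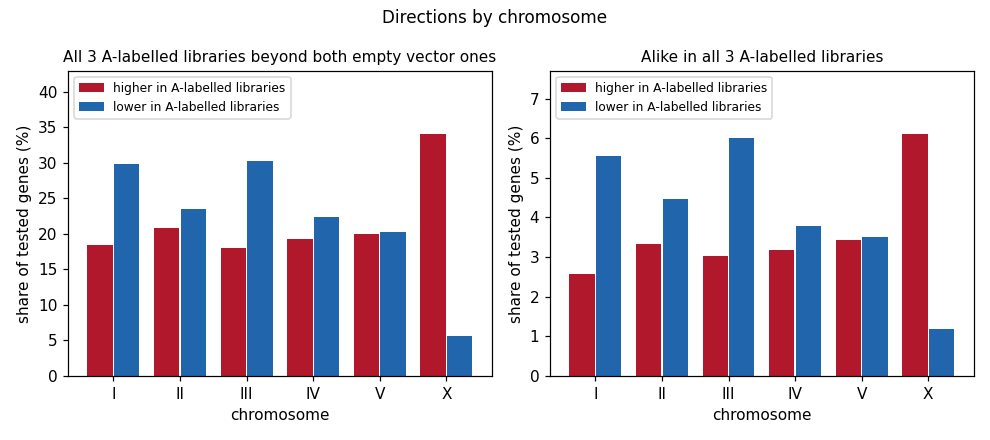
Share of tested genes per chromosome that lay beyond both empty vector libraries in all 3 A-labelled libraries (left) and that were alike (right), higher in the A-labelled libraries in red and lower in blue. On the X chromosome 34.1% lay above and 5.68% below both, whereas on chromosome III 18.1% lay above and 30.3% below.

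Whether a gene differed between the A-labelled and the C-labelled libraries was tested in the same edgeR fit, in which 5 genes were called higher (0.0338%) and 1 lower (0.00677%) in the A-labelled libraries. The collagen col-150 was the alike gene among them. It measured 1.93, 2.24 and 1.83 CPM in the A-labelled libraries, against 0.507, 0.422 and 0.490 CPM in the C-labelled libraries (log2 difference 2.07 ± 0.21, edgeR, adjusted p = 0.0337). The other called genes were cyp-34A4, chil-12, kin-30 and C32H11.4, higher in the A-labelled libraries, and F48E3.2, lower. Against the empty vector libraries, cyp-34A4 and chil-12 lay below both in all A-labelled libraries, while the groups overlapped for kin-30, C32H11.4 and F48E3.2. For aman-1 and vet-2 the edgeR adjusted p of this difference was 0.413 and 0.313, so no difference between the RNAi labels was detected for them, which does not show that the labels act alike.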

How the data were processed

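Per the labels' protocols, QIAzol was used to extract total RNA of whole worms, and the sequencing libraries came from Illumina's TruSeq RNA v2 chemistry, in which strand is not recorded. The submitters' processing notes name featureCounts (version 1.5.0), TopHat2 (version 2.1.0), bcl2fastq (version 1.8.4) and the build WBcel235, with no order. The authors deposited raw read counts per gene, which were the values analysed here, and their RPM and RPKM tables were not used. Of 46739 genes, 46484 matched the annotation of that build, and coordinates are from it.

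Genes were filtered by edgeR's filterByExpr, which left 14772 genes with 99.94% or more of each library's counts. All 8 libraries (3 isoform A, 3 isoform C, 2 empty vector) entered a TMM-scaled robust quasi-likelihood fit in edgeR 4.0.16 (R 4.3.3), whose contrast was isoform A minus empty vector, with Benjamini-Hochberg adjustment over all genes and a threshold of 0.05. DESeq2 1.42.0 and limma-voom (limma 3.58.1) were alternatives. Library differences are log2 CPM with a prior count of 2. The steps were tested on simulated data.

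The groups share numbers 1 and 3. Deviations of same-numbered libraries correlated at 0.22 and 0.025. The deviations of the empty vector libraries mirror each other, so these values are a weak check and do not decide whether the numbers are pairs. The main fit did not take the numbers as pairs, and a fit with them as a block is given below. Replicate libraries differed by more than sampling noise, and each was entered as 1 replicate. Technical differences between libraries can give such a spread too, so it does not show that the replicates were separate cultures. Each library held 30289733 to 43364047 counts, and their number rather than depth limits the precision of all but the lowest genes.

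Named genes, besides vab-3, were of 3 kinds. Among genes with a gene-class symbol (letters, hyphen and number) and a mean of 5 CPM or more, these were the 14 higher and 10 lower alike genes with the smallest p, the 5 alike genes with the largest log2 difference each way, and the 5 higher apart genes with the widest gap between library 1 and the others. No apart lower gene reached that level. From each list came the pair of genes with the smallest p at 1 CPM or more. Another 40 genes, such as further members of the lists and genes without such a symbol, were added after their values were seen. A few more genes, such as emb-9, unc-54, eya-1, rde-1, sid-1 and hsp-70, are printed by no rule. The counts of named genes over the settings do not cover them. The members and the 37 lists were chosen with earlier results of these data known.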

Additional observations from a re-analysis of the deposited data

How the results depend on the processing

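The number of genes called between the A-labelled and empty vector libraries depended on the processing. It was 0 with DESeq2's size factors, with the 5 libraries alone, with limma-voom and without the robust prior. It was 8 without the filter on low counts and 1149 with DESeq2. With the replicate number as a block it was 546, with 378 higher and 168 lower genes. Leaving out 1 library at a time gave 0 to 1303 calls, and the 1303 came without A-labelled library 1. With A-labelled library 1 as the single A-labelled library it was 0. The cause of these shifts was not tested.

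Counts of genes beyond both empty vector libraries ranged with 1 empty vector library left out from 5142 to 5251 on the higher side and from 4617 to 4863 on the lower side. Alike genes then numbered 564 to 824 on the higher side and 737 to 791 on the lower side. In the main setting they numbered 529 and 604. With DESeq2's size factors 553 genes were alike higher and 446 alike lower, so the lower count fell with this scaling. Without the filter on low counts, with 22746 genes tested, 747 were alike higher and 550 alike lower. With the limit on the spread between A-labelled libraries at 0.3 in place of 0.5, 205 genes were alike higher and 209 alike lower, as fewer genes can meet it.

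Of the 135 genes picked for closer description, each under every setting, 1905 values kept their direction and side of the threshold, 250 passed it and 5 turned in sign. The log2 difference of hsp-16.41 was -1.73 to 0.81 with 1 library left out at a time, the positive value without empty vector library 1, and 0.27 with A-labelled library 1 alone. With A-labelled library 1 alone it was -0.055 for col-14, -0.20 for col-104 and -0.26 for col-133. Of the list medians, 561 moved by less than the spread between replicates and 31 by more.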

Other observations

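Several alike genes outside the naming rule, which took genes with a gene-class symbol and a minimum level, were named after their values were seen. nas-7, an astacin protease gene, measured 1.61, 2.90 and 2.09 CPM in the A-labelled libraries, against 0.725 and 0.498 CPM in the empty vector libraries (1.83 ± 0.42). ttr-31, of the transthyretin-related family, measured 2.85, 4.66 and 3.84 CPM in the A-labelled libraries, against 1.503 and 1.195 CPM in the empty vector libraries (1.48 ± 0.26). haao-1, an enzyme that degrades tryptophan along the kynurenine route, measured 5.98, 6.42 and 5.2 CPM in the A-labelled libraries, against 2.50 and 2.36 CPM in the empty vector libraries (1.27 ± 0.20). The groups did not overlap in these 3 genes, as in every alike gene. The Notch ligand gene lag-2 measured 1.73, 2.21 and 1.88 CPM in the A-labelled libraries, against 0.993 and 0.730 CPM in the empty vector libraries (1.16 ± 0.24). ZC116.3, named cubn-1 in the annotation, measured 6.91, 8.18 and 7.90 CPM in the A-labelled libraries, against 3.57 and 3.55 CPM in the empty vector libraries (1.10 ± 0.17). Its empty vector libraries were close to each other. Of genes known only by a sequence name, F55B11.3 measured 44.6, 48.7 and 45.03 CPM in the A-labelled libraries, against 30.3 and 31.5 CPM in the empty vector libraries. F53H4.2 measured 66.9, 73.2 and 59.0 CPM in the A-labelled libraries, against 43.1 and 36.3 CPM in the empty vector libraries. T22B2.1 measured 10.6, 9.94 and 11.7 CPM in the A-labelled libraries, against 5.85 and 5.61 CPM in the empty vector libraries. By the definition of alike, the groups did not overlap in any of the genes above, and none passed edgeR's threshold. On the lower side, the C-type lectin gene clec-55, a member of the defence list, measured 0.691, 0.656 and 0.927 CPM in the A-labelled libraries, against 1.48 and 1.79 CPM in the empty vector libraries (-1.10 ± 0.36), at few counts.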
